A study of Mus musculus with 8 samples.

Results

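The genes described here encode core proteins of the spliceosome and the SR proteins, and were taken by symbol: names starting with Snrp (without Snrpn), Sf3a or Sf3b and a digit, U2af, Srsf or Prpf and a digit, without names containing -ps. The rule found 48 of the 55573 genes in the table: 12 Snrp genes, 12 Sf3 and U2af genes, 11 Srsf genes and 13 Prpf genes. Of these, 47 had enough counts to be tested. The exception was U2af1l4, a relative of U2af1, which had 3 to 18 counts in the deeper library of each group and 0 in each shallower one.

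The spliceosome removes introns from precursor messenger RNA. Its small nuclear ribonucleoproteins (snRNPs) U1, U2, U4 and U5 carry a shared ring of Sm proteins, U1 recognises the 5′ splice site, and the SF3A and SF3B complexes with U2AF place U2 at the branch site near the 3′ splice site. SR proteins, named for their runs of arginine and serine, bind exons and recruit these parts, and the PRPF factors join the snRNPs and drive their rearrangement. Splicing activity is known to bear on the 2-cell-like state: blocking SF3B1 or lowering splicing factors in mouse embryonic stem cells (ESCs) is known to raise genes of the totipotent embryo.

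Polyadenylated RNA of 8 mouse ESC libraries was sequenced in bulk, with 2 libraries for each of the 4 groups. Wild-type ESCs without treatment (mESC) stood beside untreated cells of genotype 2C::GFP+, named after a reporter of the 2-cell-like state. Cells of this genotype in the group 2C::GFP+/SGC received SGC0946, a DOT1L inhibitor, at 2 µM in KnockOut serum replacement medium with LIF (below, SGC0946 alone). Those of 2C::GFP+/SA received SGC0946 and AS8351, described as an inhibitor of KDM5B, each at 2 µM in the same medium with IL6/sIL-6R replacing LIF (below, the full treatment), so that the second compound and the cytokine cannot be told apart. The labels name 2 media for ESCs, one with MEK and GSK3 inhibitors and one with serum replacement, and do not assign them to mESC or untreated 2C::GFP+, so that medium and group cannot be told apart there. They do not say how strongly the reporter was on, whether cells were sorted by it, or whether the 2 libraries of a group came from separate cultures; p-values then measure the spread between these libraries, which may be technical. The 2 columns used for untreated 2C::GFP+ carry the name of the serum replacement (KOSR). They were assigned by elimination, on which each comparison involving that group depends.

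Depth ran from 96895327 to 145810034 counts in the replicate 1 libraries and from 12299931 to 19544870 in the replicate 2 libraries, so that a gene with no count lay below 0.0206 to 0.244 CPM (counts scaled to library size; 3 counts were taken as the floor). The summed level of 9 pluripotency markers was 8827 to 12696 TPM (counts scaled for gene length and library size) in the 8 libraries, so all of them carried the labelled cell type's transcripts. Markers of the 2-cell-like state (9 genes) summed to 5.02 and 14.7 TPM in mESC, 895 and 1123 in untreated 2C::GFP+, 2484 and 2316 under SGC0946 alone, and 11958 and 5654 under the full treatment. Markers of primitive endoderm (9 genes) summed to 37.0 to 123 TPM outside 2C::GFP+/SA and to 111 and 284 within it, with at most 1 of them at 0 in a library. Fibroblast markers summed to 6.06 to 28.2 TPM. In bulk RNA, fewer cells of a type and less RNA per cell cannot be told apart.

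Splicing factor transcripts summed to 7853 ± 334 TPM in mESC, 7930 ± 123 in untreated 2C::GFP+, 7797 ± 13.0 under SGC0946 alone and 6985 ± 497 under the full treatment (SD, n = 2). The 12 Snrp genes summed to 2044 ± 51.0 TPM in mESC, 2152 ± 35.5 in untreated 2C::GFP+, 2093 ± 75.1 under SGC0946 alone and 1762 ± 73.6 under the full treatment. Both 2C::GFP+/SA libraries (1709 and 1814 TPM) lay below all 6 others. The Sf3 and U2af genes summed to 2208 ± 138, 2301 ± 55.0, 2185 ± 13.6 and 1843 ± 230 TPM in the same order, and the 2C::GFP+/SA libraries, at 1681 and 2006 TPM, again lay below the other 6 but apart from each other. The Srsf genes summed to 2234 ± 109 TPM in mESC, 2053 ± 34.3 in untreated 2C::GFP+, 2065 ± 38.9 under SGC0946 alone and 1922 ± 41.1 under the full treatment, so the 3 groups of 2C::GFP+ cells all lay below mESC. The Prpf genes summed to 1367 ± 36.2, 1424 ± 1.90, 1454 ± 9.64 and 1457 ± 152 TPM, and their 2C::GFP+/SA libraries (1350 and 1565) enclosed those of both other 2C::GFP+ groups. These sums are on the TPM scale and were not tested, and a class sum is carried by its most abundant members. By the median log2 CPM of a class in place of its summed TPM, the direction turned for the Sf3 and U2af genes in 2C::GFP+ against mESC (log2 difference 0.06 by the sum, -0.14 by the median) and for the Prpf genes in 2C::GFP+/SA against 2C::GFP+ (0.03 and -0.12), against mESC (0.09 and -0.10) and, by less, against 2C::GFP+/SGC (0.0031 and -0.036). In 2C::GFP+/SGC against 2C::GFP+ it turned for the Prpf genes (0.03 and -0.08) and the Srsf genes (0.01 and -0.17).

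**Figure D1:**
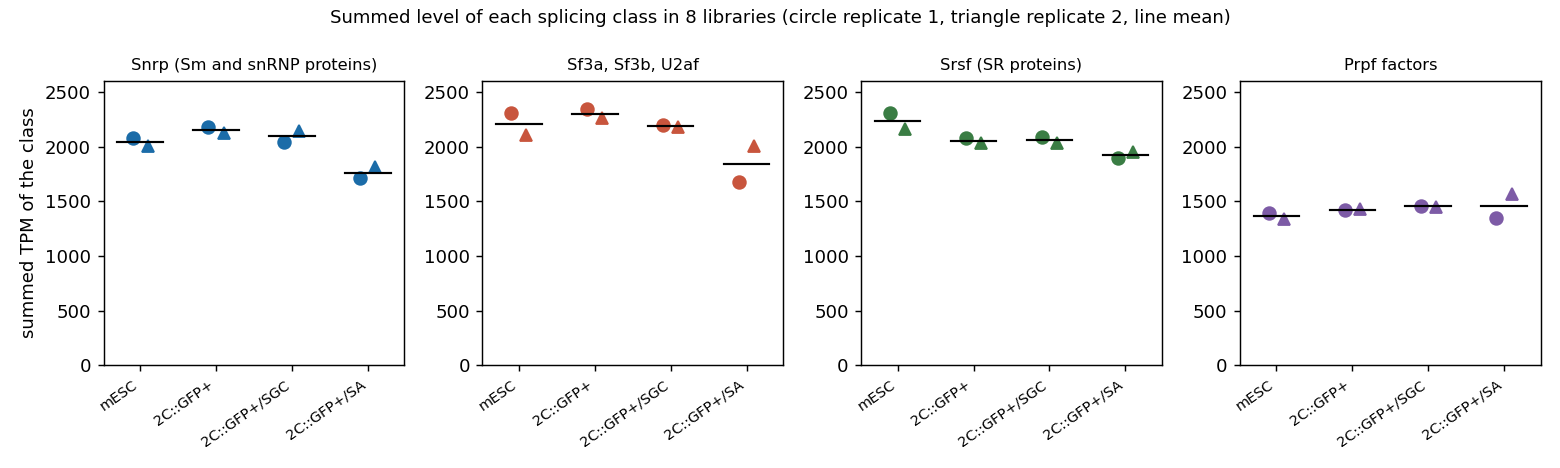
Summed TPM (y axis) of each splicing class in the 8 libraries, by group (x axis); circles are replicate 1, triangles replicate 2, lines group means. The Snrp sum of 2C::GFP+/SA (1709 and 1814 TPM) lies below every other library, while the Prpf sums of 2C::GFP+/SA (1350 and 1565 TPM) enclose those of the untreated 2C::GFP+ libraries.

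Under the full treatment, single genes moved both ways. Against untreated 2C::GFP+ cells, 11 splicing factor genes fell and 3 rose in 2C::GFP+/SA out of 47 tested (29.8%), at an adjusted p under 0.05 in edgeR's quasi-likelihood test. Of all 20608 tested genes, 28.7% were called in this comparison, so the share of members called was near the background. By direction, 23.4% of the members fell against 13.8% of all genes, and 6.38% rose against 14.9%. The genes that fell were Snrpd1, Snrpd2, Snrpd3, Snrpa, Snrpb2, Sf3a3, U2af1, Srsf2, Srsf3, Srsf4 and Srsf9, and Srsf5 and Snrpc were among those that rose. The median log2 fold change of the members was -0.20, against 0.01 for all genes, and both 2C::GFP+/SA libraries lay below both 2C::GFP+ libraries for 23 members (48.9%, against 32% of all genes). Leaving out replicate 1 of untreated 2C::GFP+ gave a members' median of -0.08, and leaving out replicate 2 of 2C::GFP+/SA gave -0.09. The changes were small: no member passed a factor of 2, and the median size of the log2 fold change was 0.24, against 0.57 for all genes.

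The rises of Srsf5 and Snrpc and the fall of Sf3a3 were called in all 16 alternative settings, and each of the other 10 falls was lost without at least 1 library. Without 2C::GFP+ replicate 1, the falls of all genes but Sf3a3 were lost (adjusted p between 0.0673 and 0.325 for the 10), 4 members were called, and the number called over all genes went from 5910 to 2890. Without 2C::GFP+/SA replicate 2, 5 members were called, 3 higher and 2 lower. With size factors computed as in DESeq2, the split was 4 higher and 6 lower in place of 3 and 11, and the median of all genes itself moved from 0.01 to 0.10. Measured from the median of all genes, the members' median was -0.21 in both, and it ran from -0.34 to -0.13 over every setting. The value nearest to 0 was that of the filter of 1 CPM in 2 libraries. There 11 of 47 members were called, and 5371 of 15175 genes. With 1 library left out, the class medians ran from -0.42 to -0.19 for Snrp, from -0.27 to -0.13 for Sf3 with U2af and from -0.35 to -0.16 for Srsf.

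**Figure D2:**
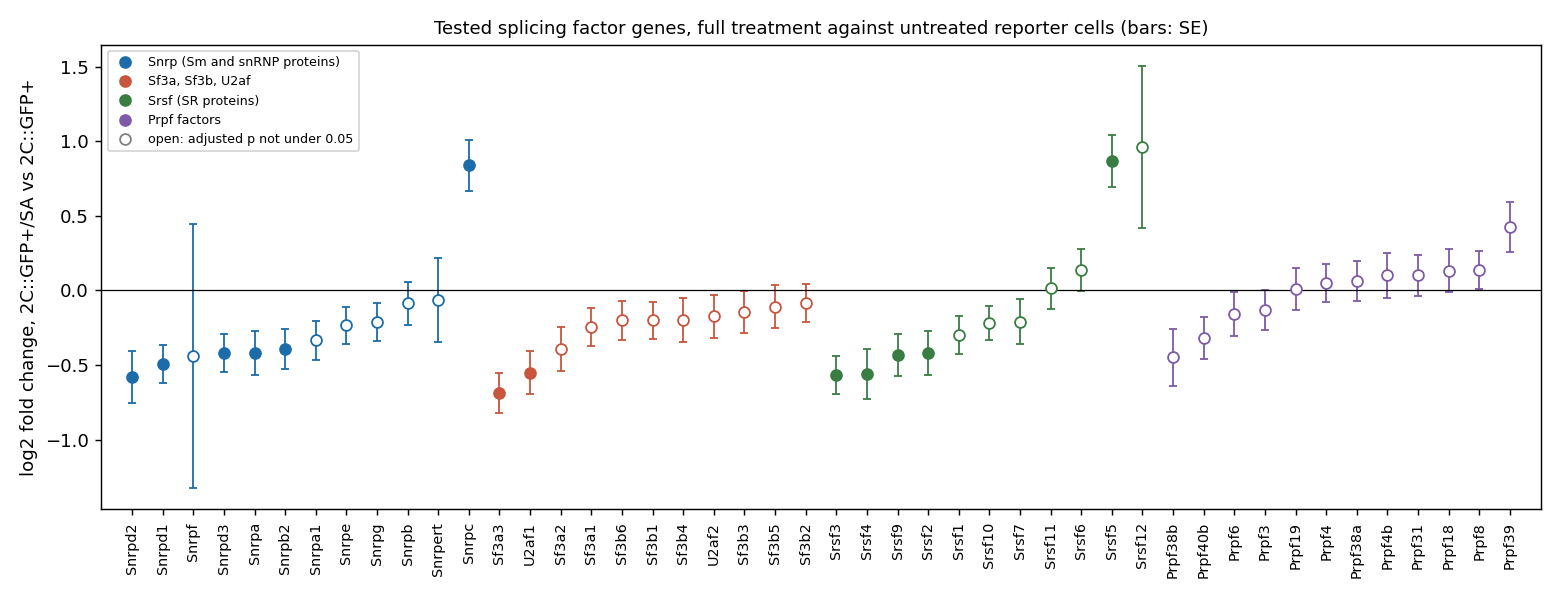
Log2 fold change (y axis, 2C::GFP+/SA against 2C::GFP+) of the tested genes (x axis, 1 not shown), ordered within each class; bars are SE and filled points have an adjusted p under 0.05. Srsf5 (0.87) and Snrpc (0.84) are the filled points above 0, Srsf12 (0.96) is higher but open with a wide bar, and Sf3a3 (-0.69) is the lowest.

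Splicing factor genes have many processed pseudogenes, and how the authors counted reads that map to several places, or used strand, is not given in the sources used here. Of the 47 tested genes, 25 shared at most 5% of their 31-base words with any other annotated gene and 22 shared more. Among the 25, 1 rose and 1 (Srsf9) fell in 2C::GFP+/SA against 2C::GFP+, with a median of -0.11. Among the 22, 2 rose and 10 fell, and their median was -0.39. The falls thus lay mostly among genes whose reads can be split with other loci, and the part of read sharing in them was not tested. Snrpert, counted among the 12 Snrp genes, is annotated as a processed pseudogene and shares 71.5% of its words with Snrpe and others. Snrpf is the extreme: 92.1% of its words occur elsewhere, 85.4% of its exon bases are overlapped by Ccdc38 and 4933408J17Rik on the other strand, and its level of 0.322 to 6.32 TPM, far below the other Sm genes, is uncertain.

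Sequence upstream of the start is shown for 6 called members, of which some rose and others fell under the full treatment. RefSeq windows on GRCm38.p6 existed for 40 of the 48 genes (49 windows of 250 bases before the start). The lines below give the longest stretch of each window that no annotated exon covers, 5′ to 3′ on the gene's strand. It need not reach the RefSeq start: for Sf3a3 and U2af1, 85 and 128 bases of the gene's own exons lie between. Those that rose are Srsf5 (chr12:80945397-80945498, plus strand) and Snrpc (chr17:27839837-27839973, plus strand, a RefSeq start inside the annotated gene). Those that fell are Sf3a3 (chr4:124714611-124714775, plus strand), Srsf3 (chr17:29032569-29032627, plus strand), U2af1 (chr17:31658893-31659014, minus strand) and Srsf2 (chr11:116853095-116853294, minus strand). Capitals mark matches on either strand to CCGGAAG (ETS), GGGCGG (GC box), CCAAT (the CCAAT box), TATAAA (the TATA box), TGACGTCA (CRE), CACGTG (E-box), AAGATGGC (YY1), the NRF1 palindrome or the BANP palindrome.
Srsf5: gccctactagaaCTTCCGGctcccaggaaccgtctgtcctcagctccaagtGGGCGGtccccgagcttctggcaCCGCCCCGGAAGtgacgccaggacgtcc
Snrpc: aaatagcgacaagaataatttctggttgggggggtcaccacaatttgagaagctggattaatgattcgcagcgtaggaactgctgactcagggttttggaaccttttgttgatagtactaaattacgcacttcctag
Sf3a3: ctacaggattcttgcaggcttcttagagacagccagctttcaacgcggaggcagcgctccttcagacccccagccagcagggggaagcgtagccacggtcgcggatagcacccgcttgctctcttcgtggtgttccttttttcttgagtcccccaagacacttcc
Srsf3: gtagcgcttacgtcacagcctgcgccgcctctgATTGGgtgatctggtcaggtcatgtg
U2af1: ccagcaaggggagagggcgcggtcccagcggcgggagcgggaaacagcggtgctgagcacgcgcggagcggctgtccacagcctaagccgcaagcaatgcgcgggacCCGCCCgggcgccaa
Srsf2: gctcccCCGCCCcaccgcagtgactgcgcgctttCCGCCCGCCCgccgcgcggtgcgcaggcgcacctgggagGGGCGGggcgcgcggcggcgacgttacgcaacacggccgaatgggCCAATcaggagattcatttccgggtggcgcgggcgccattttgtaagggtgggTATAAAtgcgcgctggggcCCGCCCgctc
Srsf5 held the ETS letters at 2 places, one of them overlapping a GC box, and GC boxes of Srsf2 overlapped each other, whereas the stretches of Snrpc and Sf3a3 held none of the 9 sets of letters. Over the full windows, CCGGAAG occurred in 38.8% of the members' 49 windows, against 6.91% of 32851 windows of all genes and 11.4% of 16706 windows of tested genes. The GC box occurred in 61.2%, 32.7% and 52.6%, CCAAT in 38.8%, 33.8% and 35.4%, and TATAAA in 8.16%, 12.4% and 7.24%. The E-box occurred in 10.2%, 6.02% and 7.77%, the CRE in 4.08%, 1.55% and 2.34%, and the NRF1 palindrome in 2.04%, 0.782% and 1.39%, while the YY1 and BANP letters were in none of the members' windows. The median GC content was 60.4% in the members' windows and 58.8% in those of tested genes. A match is a description of the letters and no evidence of binding.

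Among the Snrp genes, 3 genes of the Sm ring fell and the U1 protein gene Snrpc rose under the full treatment. Of 12 tested genes, 5 fell and 1 rose against 2C::GFP+ (41.7% lower and 8.33% higher, against 13.8% and 14.9% of all genes). Their median was -0.36, and the log2 fold change was negative for 11. Snrpc (chromosome 17, 27838150 to 27851968), whose product, the C protein of U1, steadies the pairing of U1 with the 5′ splice site, stood at 52.9 and 50.2 TPM in mESC, 71.7 and 72.9 in untreated 2C::GFP+, 70.2 and 72.6 under SGC0946 alone, and 134 and 111 under the full treatment. The 2C::GFP+/SA libraries lay above all others and the mESC libraries below. Its log2 fold change was 0.84 ± 0.17 (SE, adjusted p = 0.0028) against 2C::GFP+, 0.97 ± 0.17 (0.0023) against 2C::GFP+/SGC and 1.32 ± 0.17 (4.6e-05) against mESC, a factor of 2.49. The value in 2C::GFP+ against mESC was 0.48 with an adjusted p of 0.056. Snrpc shares 9.31% of its words with other genes.

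The Sm genes Snrpd1, Snrpd2 and Snrpd3 encode the SmD proteins of the ring. Snrpd1 stood at 165 and 165 TPM in mESC, 179 and 194 in untreated 2C::GFP+, 176 and 208 under SGC0946 alone, and 119 and 136 under the full treatment. The last pair was the lowest of the 8 libraries, at a log2 fold change of -0.49 ± 0.13 (adjusted p = 0.011) against 2C::GFP+ and -0.42 ± 0.13 (0.039) against 2C::GFP+/SGC. Snrpd2 stood at 223 and 210, 218 and 219, 202 and 245, and 150 and 126 TPM in the same order of groups, and fell by 0.58 (log2) both against 2C::GFP+ and against mESC (adjusted p = 0.025 and 0.017). Snrpd3 stood at 135 and 140, 147 and 164, 148 and 169, and 107 and 115 TPM, and fell by 0.42 against 2C::GFP+ (0.024). For all 3, both 2C::GFP+/SA libraries lay below the other 6. Snrpa, for a U1 protein, fell by 0.42 and Snrpb2, for a U2 protein, by 0.39 against 2C::GFP+, near the threshold (0.047 and 0.041). These calls were lost in 9 (Snrpa) and 15 (Snrpb2) of 16 alternative settings. The calls of the SmD genes against 2C::GFP+ were lost in 2 (Snrpd1), 6 (Snrpd2) and 7 (Snrpd3) of the 16. The most abundant Snrp gene, Snrpb, which encodes SmB and SmB′, stood at 391 to 507 TPM with overlapping groups, and Snrpe at 274 to 310 TPM outside 2C::GFP+/SA and at 225 and 257 within it (log2 fold change -0.24, adjusted p = 0.17 against 2C::GFP+).

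Sf3a3 and U2af1 led the falls among the genes for branch site recognition. Of 11 tested Sf3 and U2af genes, 2 fell and none rose in 2C::GFP+/SA against 2C::GFP+. These were 18.2%, while 28.7% of all genes were called and 13.8% fell. All 11 log2 fold changes were negative (9 to 11 over the alternatives), with a median of -0.20. Sf3a3 (chromosome 4, 124714776 to 124732460), the SF3A subunit that ties the complex to U2, stood at 192 and 188 TPM in mESC, 201 and 198 in untreated 2C::GFP+, 179 and 171 under SGC0946 alone, and 116 and 123 under the full treatment. The 2C::GFP+/SA pair was clear of every other library. It fell by 0.69 ± 0.13 (adjusted p = 0.0019) against 2C::GFP+ and by 0.62 ± 0.13 (0.0019) against mESC, and the value against 2C::GFP+/SGC was -0.38 (0.066). U2af1 (chromosome 17, 31647081 to 31658892), which reads the AG at the end of the intron, stood at 318 and 307, 294 and 278, 278 and 245, and 186 and 188 TPM. It fell by 0.55 ± 0.15 (0.012) against 2C::GFP+ and by 0.68 ± 0.15 (0.0018) against mESC, and it shares 25.8% of its words with other annotated genes.

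The other U2 genes did not pass against 2C::GFP+. Sf3b1, the target of splicing inhibitors such as pladienolide B, stood at 146 and 160 TPM in mESC, 146 and 150 in untreated 2C::GFP+, 146 and 140 under SGC0946 alone, and 118 and 129 under the full treatment, with a log2 fold change of -0.20 ± 0.13 (adjusted p = 0.26). U2af2, the larger U2AF subunit, stood at 393 and 344, 393 and 358, 384 and 351, and 278 and 372 TPM, and the groups overlapped. Sf3a1 fell by 0.39 ± 0.13 (0.024) in 2C::GFP+/SA against mESC, from 190 and 178 TPM to 127 and 144. In 2C::GFP+ against mESC, where 7 of 11 values were positive, Sf3b4 was the only Sf3 or U2af gene called. It rose by 0.53 ± 0.15 (0.019) from mESC (204 and 164 TPM) to untreated 2C::GFP+ (272 and 262), and stood at 235 and 238 under SGC0946 alone and 204 and 248 under the full treatment. It shares 51.2% of its words with Gm7935 and Gm17690, and without mESC replicate 2 or 2C::GFP+ replicate 1 its call was lost (adjusted p = 0.26 and 0.11).

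The SR protein genes changed their order. Srsf5 (chromosome 12, 80945504 to 80950507) stood at 307 and 267 TPM in mESC, 267 and 263 in untreated 2C::GFP+, 322 and 289 under SGC0946 alone, and 492 and 428 under the full treatment. The 2C::GFP+/SA libraries lay above all others, and mESC and 2C::GFP+/SGC overlapped. Untreated 2C::GFP+ was lowest in TPM by its mean, but its replicate 1 was about level with mESC replicate 2 (267 TPM each). It rose by 0.87 ± 0.18 (adjusted p = 0.0029, a factor of 1.82) against 2C::GFP+, by 0.77 ± 0.18 (0.010) against 2C::GFP+/SGC and by 0.74 ± 0.18 (0.0039) against mESC. Srsf2, the speckle protein SC35, was the most abundant SR gene in mESC at 428 and 388 TPM, and stood at 360 and 338, 334 and 334, and 251 and 251 TPM in the other groups. It fell by 0.65 ± 0.15 (0.0028) in 2C::GFP+/SA against mESC and by 0.42 ± 0.15 (0.048) against 2C::GFP+. The second of these calls was lost in 9 of 16 alternative settings. Srsf5 thus made up 12.4% to 13.3% of the class sum in mESC and 21.9% and 26.0% in 2C::GFP+/SA, where it ranked 1 of 11, while Srsf2 went from 18.0% and 18.5% to 12.8% and 13.3%.

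Most other Srsf genes had lower values after the full treatment. Of 11 tested, 4 fell and 1 rose against 2C::GFP+ (45.5% called, against 28.7% of all genes, median -0.22). Against mESC, 5 fell and 1 rose (54.5%, against 45.1% of all genes, median -0.34). By direction, 36.4% fell against 13.8% of all genes in the first comparison, and 45.5% against 20.1% in the second. Srsf3, the smallest SR protein and an adaptor for export of messenger RNA, stood at 145 and 147 TPM in mESC, 176 and 170 in untreated 2C::GFP+, 161 and 166 under SGC0946 alone, and 107 and 118 under the full treatment. It fell by 0.57 ± 0.13 (adjusted p = 0.0049) against 2C::GFP+, and the 2C::GFP+/SA pair was the lowest of the 8. Srsf9 stood at 181 and 171, 126 and 121, 124 and 114, and 76.6 and 102 TPM, a descending order of groups with no overlap between mESC, the pair of 2C::GFP+ and 2C::GFP+/SGC groups, and 2C::GFP+/SA. It fell by 0.52 ± 0.14 (0.016) in 2C::GFP+ against mESC, by 0.43 ± 0.14 (0.035) in 2C::GFP+/SA against 2C::GFP+ and by 0.95 ± 0.14 (1.2e-04) in 2C::GFP+/SA against mESC, and it shares none of its words with another gene. Of 16 alternative settings, the first of these calls was lost in 4, the second in 10 and the third in none. Srsf4, with 36.6 and 34.2, 27.5 and 28.1, 30.7 and 26.7, and 16.2 and 20.4 TPM, fell by 0.56 ± 0.17 (0.023) against 2C::GFP+ and by 0.92 ± 0.17 (5.8e-04) against mESC; 43.0% of its exon bases are overlapped by Gm12992 on the other strand.

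The remaining Srsf genes had smaller differences or fewer calls. Against mESC, Srsf10 fell by 0.47 ± 0.12 (adjusted p = 0.0048), from 102 and 107 TPM to 65.8 and 80.9, and Srsf1 fell by 0.34 ± 0.13 (0.041), a call that was lost in 11 of 16 alternative settings. Srsf6 had 371 and 324 TPM in mESC and 286 to 314 in the 6 other libraries, and its log2 fold change was 0.14 in 2C::GFP+/SA against 2C::GFP+ and -0.27 in 2C::GFP+ against mESC, neither of which passed. Srsf7 stood at 353 and 328 TPM in untreated 2C::GFP+ and at 281 and 286 under the full treatment, without a call, and Srsf11 at 76.1 to 112 TPM over the 8 libraries. Srsf12 was the rarest, at 0.823 to 5.25 TPM. Counts per gene do not separate full-length SR transcripts from those with a poison exon or a retained intron, by which SR genes are known to limit their own protein.

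**Figure D3:**
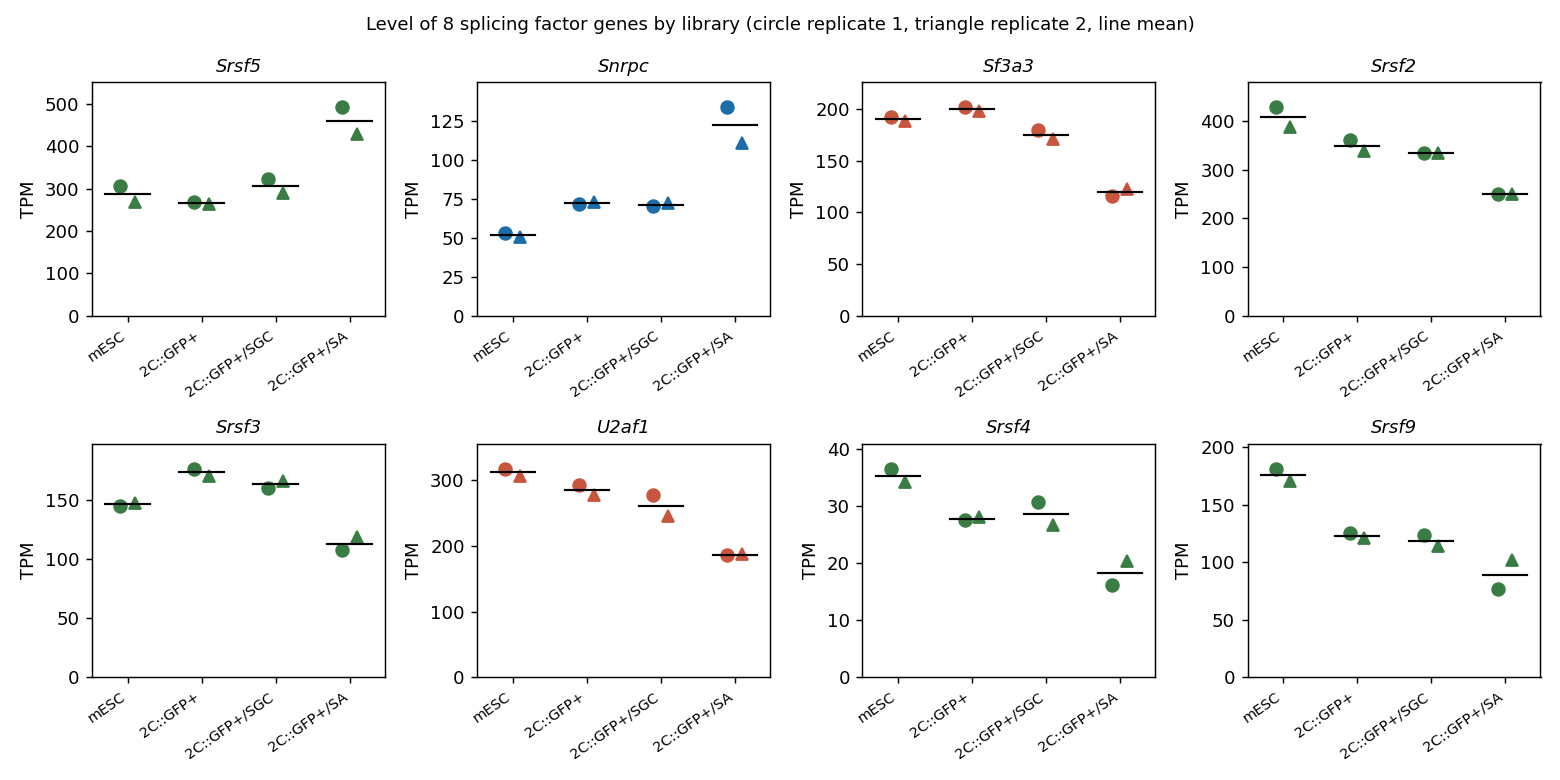
TPM (y axis, from 0) of 8 genes in the 8 libraries by group (x axis); circles are replicate 1, triangles replicate 2, lines group means. Srsf5 and Snrpc are highest in 2C::GFP+/SA (492 and 428, 134 and 111 TPM), and Sf3a3, Srsf2, Srsf3, U2af1, Srsf4 and Srsf9 are lowest there.

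Of 13 Prpf genes, none fell in 2C::GFP+/SA against 2C::GFP+, where 13.8% of all genes did. Their median log2 fold change was 0.06 and ran from -0.01 to 0.19 over the alternatives. The difference between the classes was not tested. Prpf40b, a U1-associated factor, stood at 30.6 and 36.6 TPM in mESC, 41.9 and 47.4 in untreated 2C::GFP+, 50.5 and 47.3 under SGC0946 alone, and 33.1 and 35.4 under the full treatment. It rose by 0.41 ± 0.14 (adjusted p = 0.047) in 2C::GFP+ against mESC, a call that was lost in 10 of 16 alternative settings. Its value was -0.32 (0.11) in 2C::GFP+/SA against 2C::GFP+.

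Against mESC, Prpf31 and Prpf39 rose in 2C::GFP+/SA and Prpf38b fell. Prpf38b stood at 88.1 and 81.5 TPM in mESC, 65.5 and 60.8 in untreated 2C::GFP+, 71.6 and 49.3 under SGC0946 alone, and 44.4 and 44.3 under the full treatment, and fell by 0.88 ± 0.19 (adjusted p = 0.0030). Prpf31, a tri-snRNP factor, rose by 0.43 ± 0.14 (0.021), from 84.0 and 73.9 TPM to 96.0 and 111. Prpf39, a U1 factor, rose by 0.44 ± 0.17 (0.045), from 6.43 and 7.79 TPM to 8.80 and 9.73. Of 16 alternative settings, the call of Prpf31 was lost in 4 and that of Prpf39 in 9, while that of Prpf38b held in all 16. Prpf8, the U5 protein at the catalytic centre, was the most abundant of the 48 genes in all 8 libraries (512 to 642 TPM), and Prpf19, a ubiquitin ligase of the active spliceosome, stood at 139 to 168 TPM. Neither passed in any comparison.

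Treatment with SGC0946 in LIF gave no called splicing factor gene. None of the 47 passed against untreated 2C::GFP+, and 0% of all tested genes did in edgeR. At an unadjusted p under 0.05 there were 2 members and 2037 of all genes (9.88%), and DESeq2 called 0 members and 288 genes (1.4%). The values leaned to one side: 40 of 47 log2 fold changes were negative, against 46.7% of all genes, with medians of -0.13 and 0.03. The members' median was -0.05 when replicate 1 of untreated 2C::GFP+ was left out and -0.20 when its replicate 2 was. On the TPM scale with limma, 30 of 47 were negative and the medians were -0.02 for the members and 0.09 for all genes. In the edgeR fit, both 2C::GFP+/SGC libraries lay below both 2C::GFP+ libraries for 21 members (44.7%, against 19.6% of all genes), among them 9 of the 11 Sf3 and U2af genes. The largest negative values were those of Snrpg (-0.35 ± 0.13, adjusted p = 0.39) and Sf3a3 (-0.30 ± 0.13, 0.48). Of the members with the highest levels, Prpf8 had a value of -0.02, U2af2 of -0.14, Snrpb of -0.13 and Srsf5 of 0.09. Srsf2, with a higher mean over the 8 libraries than Srsf5 (336 and 329 TPM), went from a mean of 311 CPM in untreated 2C::GFP+ to 275 CPM.

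Between mESC and the untreated reporter cells, fewer of these genes than of all genes were called. Of 47 members, 3 rose (Sf3b4, Prpf40b and Snrpa1) and 1 fell (Srsf9), or 8.51%, against 24.3% of all genes (15.2% higher, 9.12% lower), and the median was 0.02, from -0.08 to 0.10 with 1 library left out. Snrpa1, for a U2 protein, stood at 67.9 and 73.2 TPM in mESC and 94.3 and 89.2 in 2C::GFP+ (0.38 ± 0.13, adjusted p = 0.048). Its call was lost in 10 of 16 alternative settings. The Srsf genes had the lowest median (-0.25, with 9 of 11 negative) and the Snrp genes the highest (0.16, with 9 of 12 positive), and the difference between the classes was not tested. None of the 4 calls was made in every alternative setting, and 1 member was called without 2C::GFP+ replicate 1 or mESC replicate 2, 2 without 2C::GFP+ replicate 2, mESC replicate 1 or 2C::GFP+/SGC replicate 1, and 6 without either 2C::GFP+/SA library.

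Srsf5 and Snrpc also rose under the full treatment against SGC0946 alone and against mESC. Against 2C::GFP+/SGC, 3 members rose and Snrpd1 fell (8.51% of 47, against 16.1% of all genes, of which 7.92% higher and 8.18% lower), with medians of -0.01 for the members (-0.08 to 0.07 with 1 library left out) and -0.02 for all genes. On the TPM scale with limma the split was 3 higher and 8 lower (pseudocount 1) in place of 3 and 1, and the median of all genes moved to -0.13. Against mESC, 5 members rose and 10 fell (31.9%, against 45.1% of all genes), with 10.6% higher against 25% of all genes, 21.3% lower against 20.1%, and medians of -0.15 and 0.03. The members' median was -0.01 without mESC replicate 1, with 25 of 47 values negative in place of 33, and -0.28 without mESC replicate 2. Size factors as in DESeq2 gave 7 higher and 9 lower there, and limma on TPM 3 and 11. The 3 comparisons of 2C::GFP+/SA share its 2 libraries, so their values are not independent. Against mESC, 10 of the 15 calls held in all 16 alternatives, and against 2C::GFP+/SGC, that of Snrpc did. Without either 2C::GFP+/SGC library, 2 members were called against 2C::GFP+/SGC. The call of Srsf5 in that comparison was lost without either 2C::GFP+/SGC library or without 2C::GFP+/SA replicate 1 (highest adjusted p = 0.080), and that of Snrpd1 without any 1 of the 8 libraries (highest 0.27). Against mESC, the calls of Snrpd2 and Sf3a1 were lost without mESC replicate 1 or 2C::GFP+/SA replicate 2. That of Prpf31 was lost without mESC replicate 2 or 2C::GFP+/SA replicate 1, and those of Prpf39 and Srsf1 without either mESC library. Both limma fits on TPM also lost the calls of Prpf31 (adjusted p = 0.059 and 0.057) and Prpf39 (0.26 in each).

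**Figure D4:**
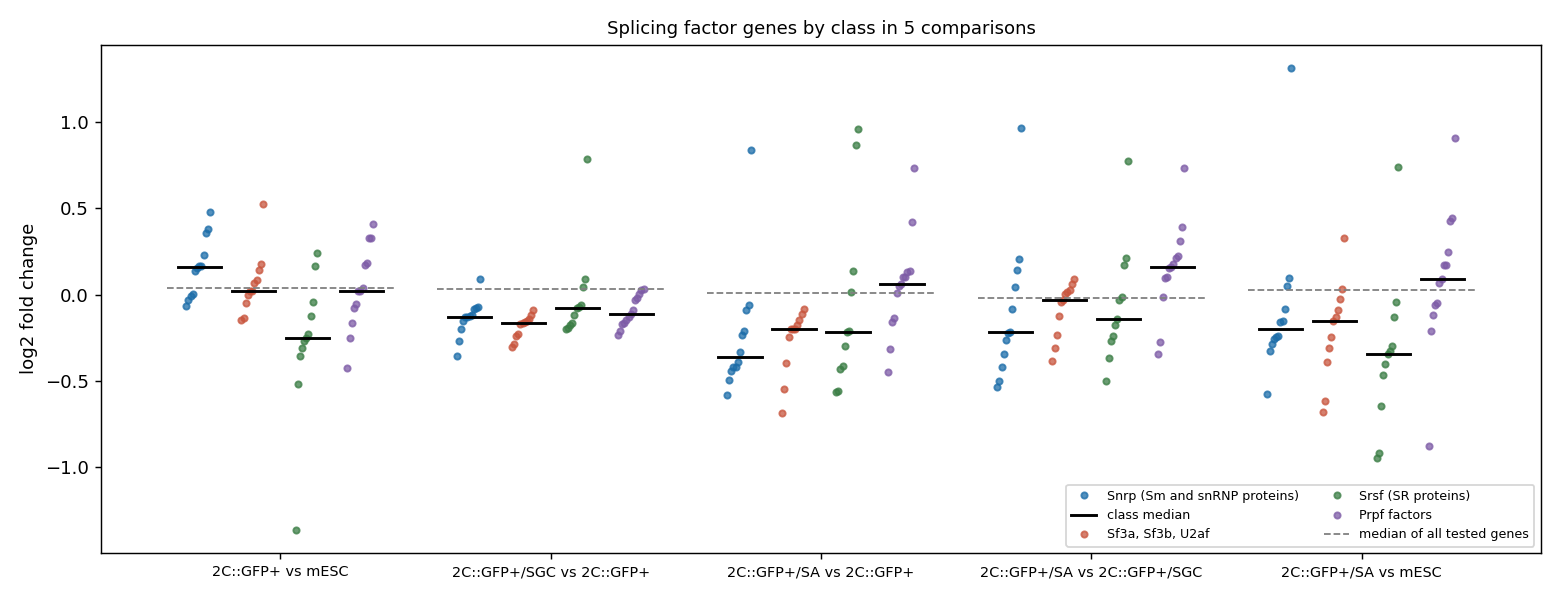
Log2 fold changes (y axis) of the tested genes of each class in the 5 comparisons (x axis); points are genes, black lines class medians and dashed lines the median of all tested genes. In 2C::GFP+/SA against 2C::GFP+ the Snrp median is -0.36 and the Prpf median 0.06, and in 2C::GFP+/SGC against 2C::GFP+ the 4 class medians lie between -0.16 and -0.08.

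Other splicing genes moved in both directions after the full treatment. Of 34 further U1, U2, U5 and tri-snRNP genes, 8 fell and 3 rose in 2C::GFP+/SA against 2C::GFP+ (median -0.21), or 32.4% against the 28.7% of all genes (13.8% lower, 14.9% higher). The branch site helicase gene Ddx46 fell by 0.72 ± 0.12 (adjusted p = 6.9e-04) and the U6 ring gene Lsm3 by 0.57 ± 0.15 (0.013), and Cherp rose by 0.58 ± 0.15 (0.0095). Of 32 genes of the activated and step II spliceosome, 7 rose and 4 fell (34.4%, median 0.02). Rbmx2 rose by 1.35 ± 0.18 (1.2e-04) and Bud13, its partner in the RES complex, by 1.39 ± 0.19 (1.6e-04), from 28.1 to 71.6 CPM and from 48.3 to 126 CPM. Slu7, which selects the 3′ splice site in step II, rose by 0.70 ± 0.14 (0.0023), and Ppil1 fell by 0.74 ± 0.17 (0.0055).

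Of 11 genes of the minor spliceosome, which removes the rare U12-type introns, 2 rose (Zrsr1 by 0.98 ± 0.18 and Rnpc3 by 0.86 ± 0.21) and 1 fell (Scnm1 by 0.67 ± 0.18), or 27.3% called. Of 15 snRNP assembly genes, 1 rose (Gemin7, by 0.67 ± 0.16) and 2 fell (Coil, the Cajal body protein coilin, by 0.51 ± 0.15, and Strap by 0.39 ± 0.13), or 20% called. Of 46 hnRNP and other regulator genes, 7 rose and 8 fell (32.6%). Mbnl3, a muscleblind regulator, rose by 2.00 ± 0.30 (adjusted p = 3.0e-04) from a low level of 3.04 to 12.1 CPM, while Hnrnpd fell by 0.81 ± 0.12 (2.4e-04), Hnrnpa3 by 0.86 ± 0.15 (7.8e-04) and Ptbp3 by 0.77 ± 0.13 (7.0e-04). Of 16 genes of the exon junction complex and nonsense-mediated decay, 1 rose (Upf3a) and 2 fell, among them Smg1 (18.8%). The shares of these 6 lists lay around the 28.7% of all genes called in this comparison, from 18.8% to 34.4%. The named calls of Ddx46, Rbmx2, Bud13, Slu7, Zrsr1, Mbnl3, Hnrnpd, Hnrnpa3 and Ptbp3 held in all 16 alternatives. Those of Ppil1, Lsm3, Rnpc3, Coil, Strap and Upf3a were lost without 2C::GFP+ replicate 1. Those of Cherp, Gemin7, Scnm1 and Smg1 were lost without 2C::GFP+ replicate 2. Of 16 alternative settings, the call of Strap was lost in 12, that of Upf3a in 5 and that of Smg1 in 4. Each of the others was lost in 1 or 2. The lower values of the members stood beside other shifts of the same samples: of 30 proliferation genes, 9 fell and 2 rose in this comparison (36.7%), 6 of 9 pluripotency markers fell (66.7%), and all 9 primitive endoderm markers had positive values, 8 of them called (88.9%). The part of these in the splicing factor values was not tested.

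Among genes for kinases that phosphorylate SR proteins, Clk3 and Clk4 fell in one comparison and rose in another. In 2C::GFP+ against mESC, 4 of 9 genes for SR kinases and the SR import receptor fell and none rose (44.4%, against 24.3% of all genes, 9.12% lower). In 2C::GFP+/SA against 2C::GFP+, 3 rose, 1 fell and 5 were not called (44.4%, against 28.7%). Clk3 stood at 16.3 and 17.3 TPM in mESC, 9.88 and 11.1 in untreated 2C::GFP+, 13.8 and 14.3 under SGC0946 alone, and 20.9 and 20.9 under the full treatment, with no overlap between any of the groups. It fell by 0.68 ± 0.16 (adjusted p = 0.0055) in 2C::GFP+ and rose by 1.07 ± 0.16 (2.5e-04) with the full treatment. Clk4 stood at 23.1 and 21.1, 11.7 and 12.5, 16.5 and 12, and 20.6 and 23.2 TPM, and fell by 0.88 ± 0.19 (0.0036) and rose by 0.91 ± 0.19 (0.0028) in the same comparisons. Clk1 rose by 0.67 ± 0.19 (0.017) with the full treatment, a call lost without 2C::GFP+ replicate 2 (0.13) or 2C::GFP+/SA replicate 1 (0.055). These 2 comparisons share the untreated 2C::GFP+ libraries, whose low values enter both. Srpk1, the cytoplasmic SR kinase, fell by 0.57 ± 0.12 (0.0027) with the full treatment, from 59.3 and 63.0 TPM to 36.4 and 42.8, while the import receptor gene Tnpo3 had a value of 0.08 (0.68).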

How the data were processed

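RNA-seq of polyadenylated RNA was analysed in 8 libraries. The deposited count values are whole reads per gene without normalization by the authors, and the deposited TPM values are these counts over 1 length for each gene, brought to a common total. Named in the submitters' processing notes are STAR 2.7.4a, featureCounts 2.0.0, Trim Galore 0.6.5, FastQC 0.11.9 and, with no version or role, Cell Ranger, with builds mm10 and GRCm38. Annotation release, strand setting and handling of multi-mapping reads: not given in the sources used here. Symbols, coordinates and shared 31-base words came from GENCODE M21 (GRCm38).

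Counts were fitted with edgeR 4.0.16 (R 4.3.3): filterByExpr kept 20608 genes, TMM factors were 0.942 to 1.06, and a robust quasi-likelihood model with a term for each group took in the 8 libraries (4 residual degrees of freedom, common coefficient of variation 20.6%). Two-sided p-values were adjusted by Benjamini-Hochberg over all tested genes of each of 5 comparisons, and called under 0.05. SE is the size of the log2 fold change over the square root of F. Values between genes use TPM. The fit was tested on simulated data. Depth per library, given in the report, limits precision mainly in the shallower replicate 2. Most members also had a higher log2 CPM in the deeper replicate 1, except under SGC0946 alone. The median difference from replicate 2 was 0.19 (mESC), 0.18 (untreated 2C::GFP+), 0.15 (full treatment) and 0.02 (SGC0946 alone). Against untreated cells, the members' median log2 fold changes were of similar size: -0.20 (full treatment) and -0.13 (SGC0946 alone). The part of this replicate shift in those medians was not tested.

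Alternatives were DESeq2 1.42.0, its size factors in edgeR, no filter and a filter of 1 CPM in 2 libraries, limma 3.58.1 on log2(TPM + 1) and log2(TPM + 0.1), only the 4 libraries compared, a replicate block, each library left out, and, added after the data were seen, only members sharing at most 5% of their 31-base words. Any member may be named; values in every library are given for up to 3 called members in the more frequent direction and 1 in the other per class and comparison by adjusted p, or the 2 most abundant where none is called, and up to 3 and 1 called genes of each other splicing list are named. Some further members are given with their library values, chosen after those were seen. The members and lists were chosen with earlier results of these data known. Of the list genes, Cenatac matched no identifier and 3 fibroblast markers were not tested. Same-numbered libraries were checked for pairing and not treated as pairs. Totipotent-like stem cells named in the design text were not analysed here, and some genes that the rule names are not reported here.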

Additional observations from a re-analysis of the deposited data

How the results depend on the processing

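In no alternative did a called member or a named and called list gene change sign. Left out one at a time, the 8 libraries gave 1 to 6 called members in 2C::GFP+ vs mESC (4 with all), 4 to 14 in 2C::GFP+/SA vs 2C::GFP+ (14), 2 to 5 in 2C::GFP+/SA vs 2C::GFP+/SGC (4), 12 to 16 in 2C::GFP+/SA vs mESC (15) and 0 in 2C::GFP+/SGC vs 2C::GFP+. Both limma fits gave 1 in 2C::GFP+ vs mESC, and 11 (pseudocount 1) and 10 (pseudocount 0.1) for 2C::GFP+/SA vs 2C::GFP+/SGC. The fit of only the 4 libraries gave 8 in 2C::GFP+/SA vs 2C::GFP+. The replicate block gave 9 in 2C::GFP+ vs mESC, 8 in 2C::GFP+/SA vs 2C::GFP+/SGC, 17 in 2C::GFP+/SA vs 2C::GFP+, 20 in 2C::GFP+/SA vs mESC; the numbers were not taken to pair the libraries, since the correlations of the replicate differences over all genes were 0.041 to 0.142, not all over 0.1; over the members alone they were 0.0183 to 0.82. Only members sharing at most 5% of their words gave 2, 1 and 6 in 2C::GFP+/SA vs 2C::GFP+, vs 2C::GFP+/SGC and vs mESC, of fewer genes tested. The cause of the other shifts was not tested. With the median log2 CPM of a class in place of the log2 ratio of its summed TPM, the values for Snrp, Sf3 with U2af, and Srsf were 0.206, -0.136 and -0.0627 in 2C::GFP+ vs mESC (by the sums 0.0741, 0.06 and -0.122). They were -0.113, -0.216 and -0.172 (Prpf -0.0848) in 2C::GFP+/SGC vs 2C::GFP+ (sums -0.0404, -0.0746, 0.00816 and 0.0302). For 2C::GFP+/SA vs 2C::GFP+ they were -0.377, -0.487 and -0.376 (Prpf -0.121; sums -0.289, -0.32, -0.0949 and 0.0333). In 2C::GFP+/SA vs 2C::GFP+/SGC the Srsf value was -0.204 (sum -0.103) and the Prpf value -0.0357 (0.00313), and in 2C::GFP+/SA vs mESC those of Sf3 with U2af, Srsf and Prpf were -0.623, -0.438 and -0.0987 (sums -0.26, -0.217 and 0.092). Depth limits Snrpf, Srsf12 and U2af1l4 most.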
